A study of Mus musculus with 93 samples.

Results

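The posterior eyecup of the mouse carries a large skeletal muscle signal, and 35 genes of the muscle fibre were followed through it here. They were chosen by symbol from the 30235 genes of the deposited tables: 9 genes of the thin filament, 7 myosin heavy chains, 4 myosin light chains, 6 genes of the Z-disc and its scaffold, 5 genes of calcium handling and 4 genes of energy supply. The study compared female mice that were wild type (Wt) with mice homozygous for a knock-in allele of Efemp1 (Efemp1ki/ki), a model of Doyne honeycomb retinal dystrophy. The mice were untreated, and the labels name no promoter, Cre line or clone. Bulk messenger RNA was sequenced at 3, 9 and 17 months of age from 2 tissues, neural retina and posterior eyecup, the second being the eye with lens and retina taken out. The eyecup groups held 6 Wt and 8 Efemp1ki/ki libraries at 3 months, 8 and 8 at 9 months, and 8 and 7 at 17 months, 45 in all, beside 48 retina libraries (8 in each of 6 groups). No label names extraocular muscle as a tissue that was taken. The labels do not tie libraries to animals, and the error behind every p-value is therefore that between libraries, which may be technical.

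Skeletal muscle contracts when myosin heads pull on actin filaments. The sarcomere, its repeating unit, holds thick filaments of myosin heavy and light chains and thin filaments of actin, tropomyosin and troponin, anchored at Z-discs. Calcium released from the sarcoplasmic reticulum binds troponin C and starts the contraction, and a pump returns it to the store. Fast and slow fibres use different genes for most of these parts. The muscles that move the eye are known for fibre types seen in few other muscles: they keep the embryonic (Myh3) and perinatal (Myh8) myosins into adult life and are the main site of the extraocular myosin Myh13.

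The promoters of 4 of the genes are shown because their transcripts mark the range of the pattern described below: skeletal actin and the main adult fast myosins Myh4 and Myh1, which varied with the rest of the muscle genes, and embryonic Myh3, which varied least of all 35. Each runs from 250 bases before to 50 bases after a RefSeq transcription start in GRCm38.p6. Capitals mark 4 motifs, searched on either strand and at any position of the window. They are TATAAA, the letters of a TATA box, and CAGCTG, an E-box of the kind that myogenic factors bind. The others are the CArG box (bound by serum response factor) and the MEF2 site.
Acta1 promoter: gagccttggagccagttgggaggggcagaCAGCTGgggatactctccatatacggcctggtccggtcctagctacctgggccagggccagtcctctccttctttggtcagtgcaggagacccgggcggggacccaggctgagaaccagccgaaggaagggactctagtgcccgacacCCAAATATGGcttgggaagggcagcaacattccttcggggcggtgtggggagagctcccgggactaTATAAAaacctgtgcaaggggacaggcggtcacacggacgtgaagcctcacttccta
Myh1 promoter: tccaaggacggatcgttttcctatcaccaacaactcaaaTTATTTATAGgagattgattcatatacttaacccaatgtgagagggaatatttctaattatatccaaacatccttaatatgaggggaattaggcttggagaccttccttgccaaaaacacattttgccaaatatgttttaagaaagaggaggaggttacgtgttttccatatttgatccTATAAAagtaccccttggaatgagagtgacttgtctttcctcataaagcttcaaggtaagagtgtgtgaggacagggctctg
Myh3 promoter: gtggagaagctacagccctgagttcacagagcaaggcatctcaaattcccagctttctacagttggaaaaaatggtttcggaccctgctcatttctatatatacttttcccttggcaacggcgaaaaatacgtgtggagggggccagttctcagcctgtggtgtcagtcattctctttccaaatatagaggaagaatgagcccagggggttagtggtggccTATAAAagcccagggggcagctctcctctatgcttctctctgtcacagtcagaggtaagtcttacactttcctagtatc
Myh4 promoter: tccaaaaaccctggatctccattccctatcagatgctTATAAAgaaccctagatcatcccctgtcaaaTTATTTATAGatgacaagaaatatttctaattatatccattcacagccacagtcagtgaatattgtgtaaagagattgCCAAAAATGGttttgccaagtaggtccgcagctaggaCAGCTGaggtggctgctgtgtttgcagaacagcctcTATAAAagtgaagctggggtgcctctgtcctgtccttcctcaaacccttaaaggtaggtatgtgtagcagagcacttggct
These windows lie at chr8:123894726-123895025 on the minus strand for Acta1, and on the plus strand at chr11:67199852-67200151 for Myh1, chr11:67078050-67078349 for Myh3 and chr11:67237562-67237861 for Myh4. Myh1 and Myh4 each held a TATA box, whose first base lay 32 and 31 bases before the start. Each also held a MEF2 site, which overlaps the letters TATAAA on the other strand. Myh4 further held TATAAA 213 bases before the start, an E-box and a CArG box. Acta1 held an E-box, a CArG box and a TATA box whose first base lay 7 bases before the RefSeq start. In Myh3 a TATA box 29 bases before the start was the only one of the 4 motifs.

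RefSeq promoters were found for 29 of the 35 genes. Of these 29, 14 (48.3%) held an E-box, against 18.3% of 27025 genes with a promoter of this length. A MEF2 site was found for 6 of 29 (20.7%), against 3.70% of all genes, and a CArG box for 4 of 29 (13.8%), against 1.81%. The letters TATAAA, on either strand and anywhere in the window, were found for 9 of 29 (31.0%), against 15.7%. In Myh8, Myl1 and Myl2 they stood only on the antisense strand. In Myh2 they began 10 bases after the start, so the 9 are not a count of TATA boxes. In 30 other sarcomere and triad genes with a promoter, the E-box stood in 15, the MEF2 site in 7 and TATAAA in 1. These shares describe letters in a window, and the RefSeq start lay within 100 bases of the 5′ end of the gene in the deposited tables for 18 of the 29.

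Eyecup libraries held 14236109 to 35297565 estimated counts and retina libraries 9218087 to 37475423. Efemp1 itself was not used to check the genotype labels, since a knock-in need not change its level. Among tissue markers, the pigment epithelium gene Rpe65 had a median of 129.7 TPM in eyecups against 8.04 TPM in retinas. The corneal keratin Krt12 had a median of 14410 TPM in eyecups, against 4.21 TPM in retinas, which is a marker of ocular surface epithelium in libraries labelled posterior eyecup. In 3 eyecup libraries (Wt 9 months replicate 4, Efemp1ki/ki 3 months replicate 4 and Wt 17 months replicate 2) the profile lay over 3 scaled median absolute deviations from that of its group, and fits without them are given where they change a count.

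All 35 genes were higher in eyecups than in retinas (edgeR quasi-likelihood test over all 93 libraries, largest adjusted p 2.41e-29, for Myh8), and the background in that comparison was 94.7% of 19210 genes called and 47.7% called higher. In TPM, a level scaled by transcript length, the ratio of the eyecup mean to the retina mean ran from 3.07 for Pygm to 70199 for Myh4 over 34 genes, Myh8 being given below as a bound. Of these 34 ratios, 13 exceeded 1000 and 12 lay under 100. For 34 of the 35 genes the lowest of the 45 eyecup libraries lay above the highest of the 48 retina libraries. Pygm, muscle glycogen phosphorylase, was the exception, with a lowest eyecup of 88.6 TPM and a highest retina of 97.0 TPM. The retina had a level of its own for several members: a median of 82.8 TPM for Pygm, 37.8 TPM for the enolase Eno3, 34.3 TPM for the calcium buffer parvalbumin (Pvalb) and 31.5 TPM for the slow troponin T gene Tnnt1. Myh8 had a rounded count of 0 in all 48 retina libraries, and its pooled eyecup CPM was at least 22786-fold higher than the limit set by 3 counts over the retina group. Summed, the 35 genes made up 0.0201% to 0.0251% of the protein-coding TPM in retinas (median 0.0225%) and 0.730% to 5.59% in eyecups (median 2.16%). The largest parts of the retina sum were Pygm, Eno3, Pvalb and Tnnt1 (means of 83.7, 37.9, 33.6 and 31.7 TPM). That sum is therefore not a measure of muscle in the retina.

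**Figure D1:**
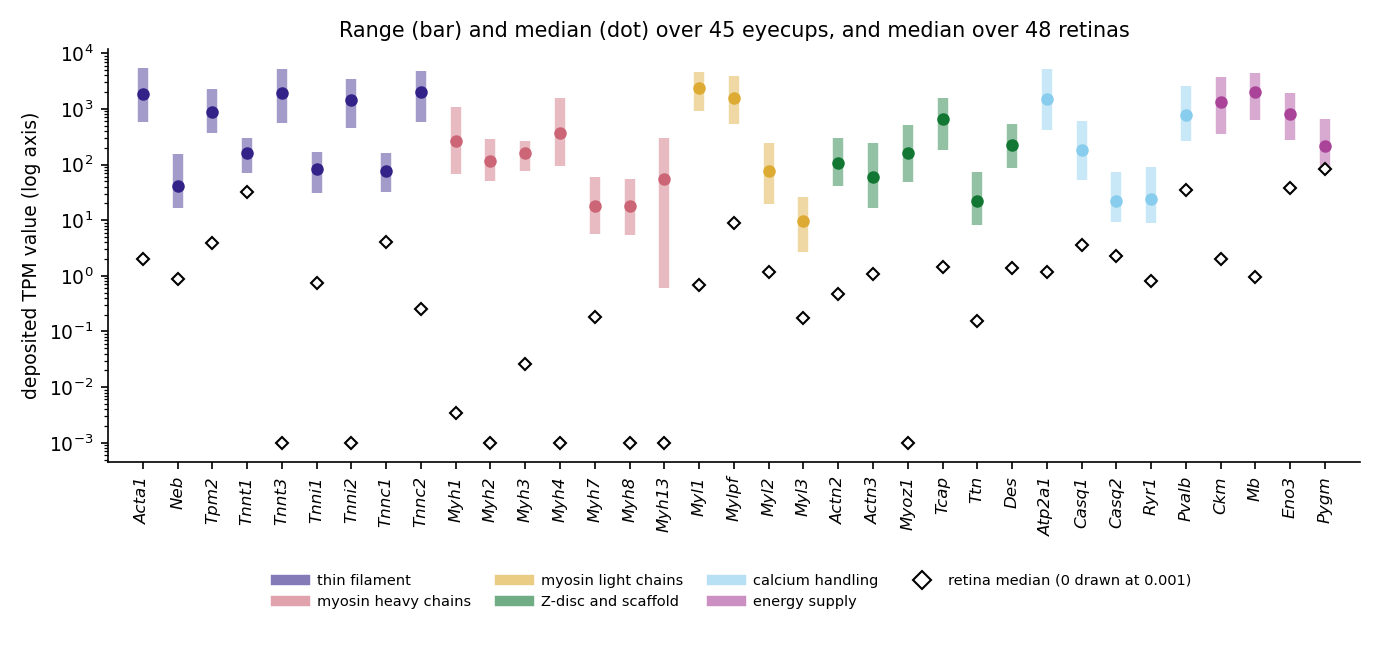
Level of each of the 35 genes in deposited TPM values on a log axis, coloured by role; the bar spans the lowest to the highest of 45 eyecup libraries, the dot is their median and the diamond is the median of 48 retina libraries, with 0 drawn at 0.001. The retina diamond lies below the eyecup bar for each gene and is nearest to it for Pygm (82.8 against a lowest eyecup of 88.6 TPM), and the bar of Myh13 is the longest, from 0.596 to 295 TPM.

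In the thin filament, skeletal actin (Acta1, chromosome 8) had an eyecup median of 1825 TPM and a range of 572 to 5422 TPM. The fast troponin genes were abundant: medians were 2050 TPM for troponin C (Tnnc2), 1947 TPM for troponin T (Tnnt3) and 1432 TPM for troponin I (Tnni2). Their slow counterparts were far lower, at 76.7 TPM for Tnnc1, 159.7 TPM for Tnnt1 and 83.9 TPM for Tnni1. Beta-tropomyosin (Tpm2) stood at 872 TPM and nebulin (Neb), the ruler of the thin filament, at 41.8 TPM. As a share of each slow and fast pair, the slow form took a median of 4.06% for troponin C (2.22% to 7.13% over 45 libraries), 5.90% for troponin I (3.02% to 9.29%) and 7.72% for troponin T (4.21% to 17.2%). The fast form was the higher one in every eyecup for these 3 pairs.

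Among the myosin light chains, the fast essential chain Myl1 had the highest median of all 35 genes, 2351 TPM, and was the highest member in 35 of 45 eyecups. The fast regulatory chain Mylpf followed at 1596 TPM. The slow and ventricular chains were low, with medians of 77.8 TPM for Myl2 and 9.81 TPM for Myl3, the lowest of the 35. Myl2 took a median of 5.26% of the sum of Myl2 and Mylpf, and Myl3 0.412% of the sum of Myl3 and Myl1.

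Among the Z-disc and scaffold genes, the titin cap gene Tcap had a median of 650.3 TPM, desmin (Des), the intermediate filament of muscle, 221 TPM, and calsarcin-2 (Myoz1) 163.8 TPM. Alpha-actinin-2 (Actn2) stood at 106.8 TPM, the fast-fibre alpha-actinin-3 (Actn3) at 59.8 TPM and the giant spring protein titin (Ttn) at 21.7 TPM. Of the calcium handling genes, the fast calcium pump Atp2a1 had 1517 TPM and parvalbumin 760.5 TPM. The fast calcium store protein Casq1 had 181.7 TPM and its slow and cardiac counterpart Casq2 21.95 TPM, with 24.4 TPM for the release channel Ryr1. Energy supply was represented by myoglobin (Mb, 1982 TPM), muscle creatine kinase (Ckm, 1352 TPM), Eno3 (793 TPM) and Pygm (219 TPM).

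The amount of muscle signal differed widely between eyecups of the same group. The summed share of the 35 genes in Wt eyecups had a lowest value of 1.03%, a median of 1.91% and a highest value of 2.88% at 3 months. At 9 months these values were 0.734%, 2.19% and 3.21%, and at 17 months 0.843%, 2.50% and 5.14%. In Efemp1ki/ki eyecups they were 1.15%, 1.70% and 3.78% at 3 months, 0.730%, 2.15% and 3.99% at 9 months, and 0.8005%, 2.44% and 5.59% at 17 months. The groups overlapped at every age and in both genotypes, and the highest library of a group exceeded its lowest by 2.81 times (Wt 3 months) to 6.99 times (Efemp1ki/ki 17 months). The 5 libraries above 4% were 3 Wt and 2 Efemp1ki/ki eyecups of 17 months, while both 17-month groups also held a library under 1%. In bulk tissue, more muscle fibres and more RNA per fibre cannot be told apart.

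**Figure D2:**
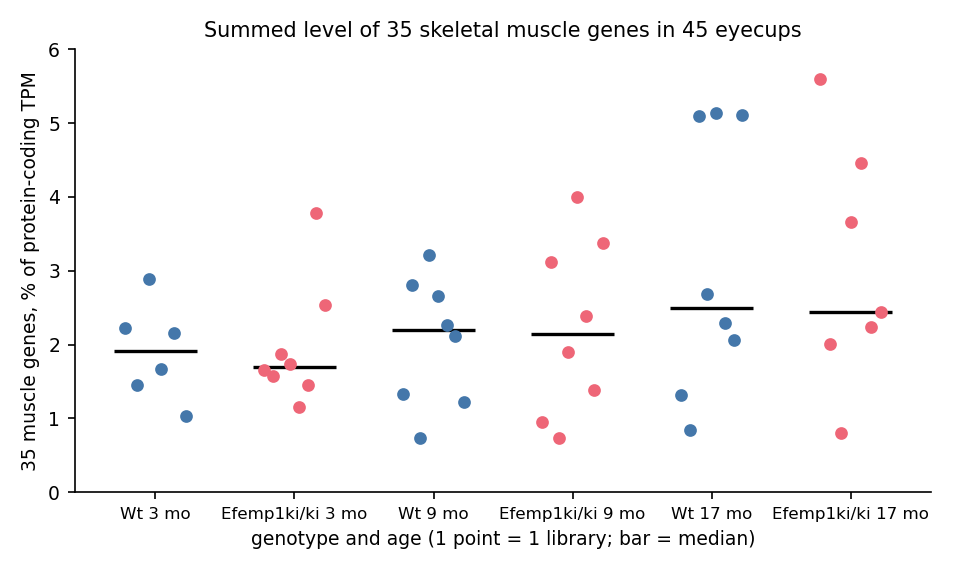
Summed level of the 35 muscle genes as a percent of the protein-coding TPM in each of 45 eyecup libraries (points), by genotype and age, with the group median (bar). Every group spans a range of at least 2.81 times, and the 5 points above 4% all belong to the 17-month groups, which also reach down to 0.843% and 0.8005%.

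The myosin heavy chain genes set the speed of a fibre. Apart from the slow form Myh7 on chromosome 14, the 6 others lie side by side on chromosome 11, in the order Myh3, Myh2, Myh1, Myh4, Myh8 and Myh13, from 67078300 to 67371586 in the deposited tables (293 kb). They are close paralogs, and how reads shared by them were assigned is not given in the sources used here, so their shares carry that uncertainty. The fastest form, Myh4 (type 2B), took a median of 37.0% of the summed TPM of the 7 genes (25.2% to 51.2%), Myh1 (type 2X) 26.7% (15.2% to 34.8%) and Myh2 (type 2A) 11.5% (6.54% to 17.7%). Embryonic Myh3 took a median of 15.8% (6.46% to 36.7%), more than Myh2. Extraocular Myh13 took 4.92% (0.162% to 12.4%), slow Myh7 1.86% (1.05% to 3.30%) and perinatal Myh8 1.65% (0.867% to 2.39%). Myh4 was the highest of the 7 in 40 of 45 eyecups, Myh3 in 3 and Myh1 in 2.

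**Figure D3:**
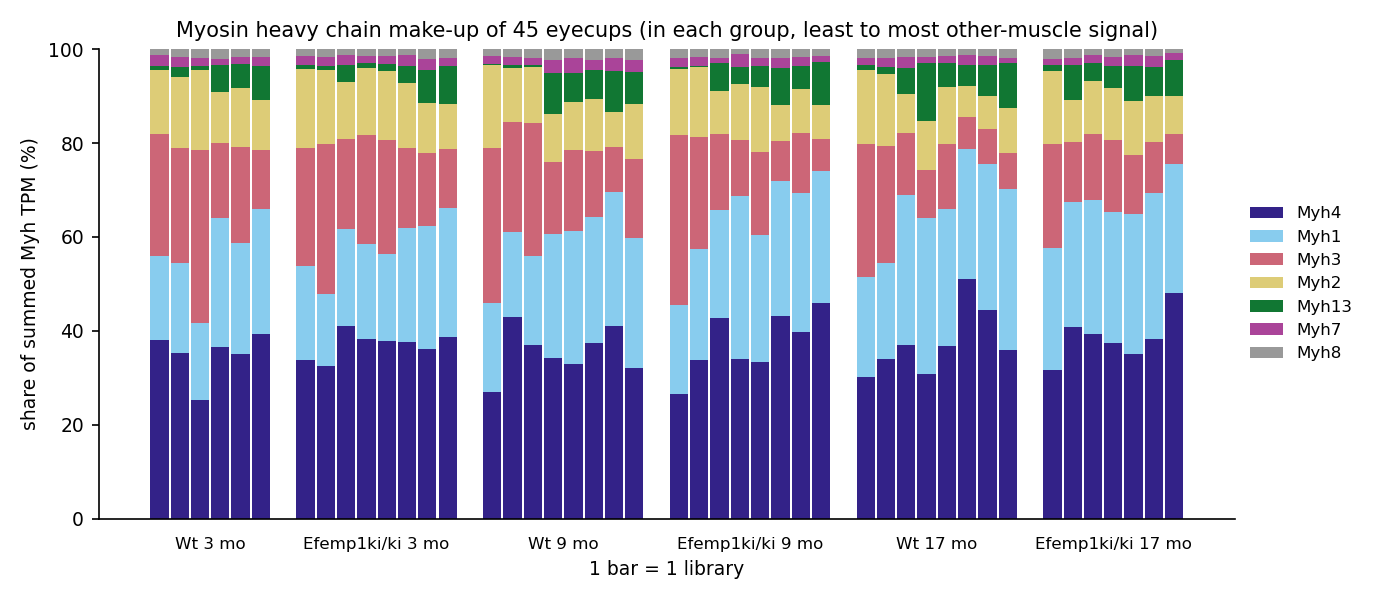
Share of each of 7 myosin heavy chain genes in their summed deposited TPM (percent), 1 bar for each of 45 eyecup libraries, ordered within a group from the least to the most signal of the other muscle genes. The Myh3 band runs from 6.46% to 36.7% and the Myh13 band from 0.162% to 12.4%, and in the eyecup with the most muscle signal Myh13 exceeds Myh3.

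The shares of Myh3 and Myh13 ran in opposite directions between the extreme libraries. In the eyecup with the least signal of the other muscle genes (Wt 9 months replicate 4), Myh3 took 32.9% and Myh13 0.162%. In the eyecup with the most (Efemp1ki/ki 17 months replicate 1), Myh3 took 6.46% and Myh13 7.57%. As levels, Myh13 stood at 0.596 TPM in the first and 246 TPM in the second, while Myh3 stood at 121 and 210 TPM and Myh4 at 98.9 and 1564 TPM. The first of these eyecups is among the 3 that stand apart from their group. It also had the highest rod signal of the 45 eyecups (list mean of log2 CPM 10.46). The share of Myh3 had group medians of 22.4%, 17.0% and 11.7% in Wt eyecups of 3, 9 and 17 months and 21.1%, 14.6% and 12.8% in Efemp1ki/ki eyecups. All 6 ranges overlapped, the 17-month groups reaching 28.4% and 22.3%.

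Myh13 had the widest range of the 35 genes. In Wt eyecups it ran from 3.50 through a median of 34.9 to 103 TPM at 3 months, from 0.596 through 64.1 to 136 TPM at 9 months and from 5.32 through 97.3 to 295 TPM at 17 months. In Efemp1ki/ki eyecups it ran from 4.69 through 20.6 to 146 TPM, from 0.829 through 57.4 to 182 TPM and from 6.20 through 80.7 to 246 TPM at the same ages. The groups overlapped over most of their ranges. It was under 10 TPM in 12 of 45 eyecups, which came from all 6 groups (2 Wt and 3 Efemp1ki/ki at 3 months, 3 and 2 at 9 months, 1 and 1 at 17 months). It exceeded Myh3 in 4 eyecups, 1 of Efemp1ki/ki at 9 months, 2 of Wt and 1 of Efemp1ki/ki at 17 months.

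Myh3 had the narrowest range of the 35 genes. Its lowest, median and highest levels in Wt eyecups were 113, 174 and 265 TPM at 3 months, 116, 148 and 232 TPM at 9 months and 124, 187 and 236 TPM at 17 months. In Efemp1ki/ki eyecups they were 134, 170.0 and 221 TPM, 77.9, 132 and 229 TPM, and 104, 185 and 264 TPM. Its highest eyecup exceeded its lowest by 3.40 times, against 16.8 times for Myh4 and 495 times for Myh13. The groups overlapped.

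Most members varied together from library to library. Each was set against the mean log2 CPM (library-scaled counts, by TMM) of 45 other sarcomere and triad genes, none of them a member, in the same 45 eyecups. Within groups the SD of the members' log2 CPM had a median of 0.94 over the 35 genes. After the mean of the other muscle genes was subtracted in each library it had a median of 0.23, and it was smaller for all 35. The steadiest after centring were Tpm2 (SD 0.11), Pygm (0.12) and Actn2 (0.12). Members and the other muscle genes share the library, its dissection and its depth, so these values describe the libraries and carry no test.

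The slope of a member on the other muscle genes, pooled within the 6 groups over 45 libraries, had a median of 1.11 and lay within 0.2 of 1 for 24 of 35 genes. Acta1 had a slope of 1.15 ± 0.02 (SE), with a range of 1.02 to 1.22 over the groups. Of the adult fast myosins, Myh4 and Myh1 were steeper, at 1.31 ± 0.05 and 1.38 ± 0.04, and Myh2 was not. Myh13 was far steeper, at 2.67 ± 0.22 (1.80 to 4.23 over the groups). Myh3 was the shallowest, at 0.50 ± 0.06 (0.39 to 0.66), followed by the slow troponins Tnnt1 (0.69 ± 0.04), Tnnc1 (0.76 ± 0.05) and Tnni1 (0.81 ± 0.05) and by Myh2 (0.83 ± 0.04). Leaving out the 2 libraries farthest from the median of the other muscle genes gave 2.83 for Myh13 and 0.50 for Myh3. After centring, Myh13 kept an SD of 1.77, from 2.47, and Myh3 0.51, from 0.51.

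**Figure D4:**
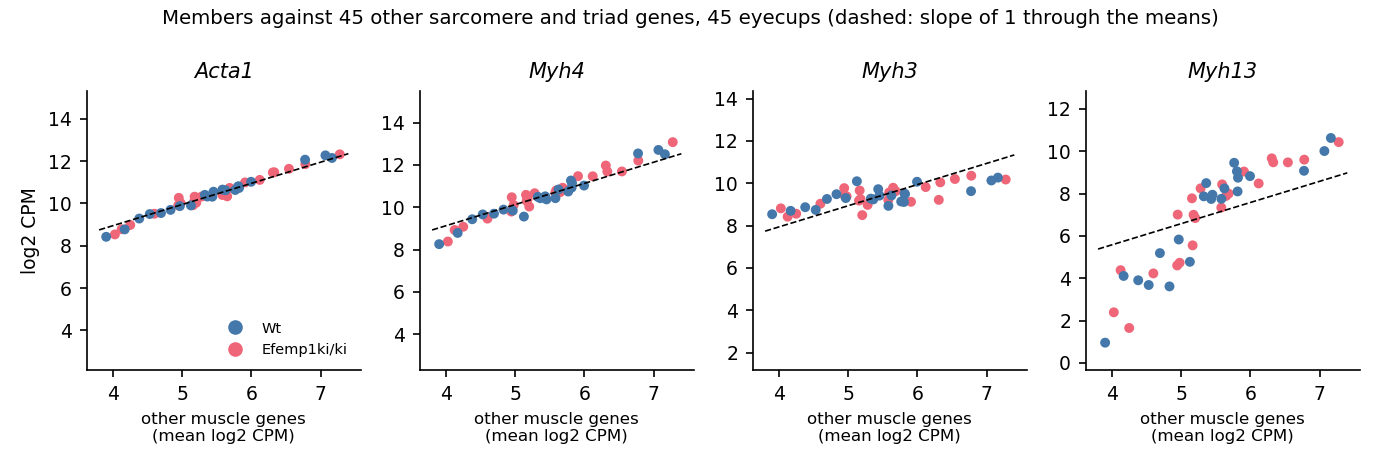
Log2 CPM of Acta1, Myh4, Myh3 and Myh13 against the mean log2 CPM of 45 other sarcomere and triad genes in 45 eyecup libraries, coloured by genotype; every panel has the same height in log2 units and a dashed line of slope 1 through the means. Acta1 (slope 1.15) and Myh4 (1.31) are somewhat steeper than the line, Myh13 is far steeper (2.67) and Myh3 flatter (0.50).

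Marker lists of other cells were set against the same muscle measure, as list means of log2 CPM over the same 45 eyecups. The neuromuscular junction list (9 of 10 genes tested) had a slope of 1.04 as a mean and ran from 1.47 to 4.69. Its genes differed, and only 1 of 9 had a slope within 0.2 of 1. The receptor subunits Chrnd (2.10) and Chrne (2.04) were steepest, before Colq and Chrna1 (1.32 each). Rapsn had 0.82, Musk 0.74, Chrnb1 0.57, Dok7 0.45 and Lrp4 0.01. Lrp4 and Chrnb1 also had retina medians of 25.0 and 17.7 TPM. The satellite cell and myogenic factor list (11 of 12 tested) had a slope of 0.70. Adipose markers (7 of 7 tested, -0.08 to 6.06) were steeper, at 1.55, and Schwann cell and myelin genes (7 of 7) had 0.62. Smooth muscle (0.37), tendon (0.02), ocular surface epithelium (0.02) and pigment epithelium (0.10) had slopes near or below 0.4, and rods a negative one (-0.74). The part of these other cells in the values of the members was not tested. By group, the adipose list had medians of 2.27, 2.35 and 2.75 in Wt and 1.92, 2.69 and 2.28 in Efemp1ki/ki eyecups of 3, 9 and 17 months. The cardiac list (7 of 9 tested) had a slope of 0.35. Its members differed: Actc1, the cardiac actin, had a slope of 1.67 ± 0.08 and a median of 316 TPM, Myh6 0.62 ± 0.12 and at most 1.39 TPM, Myl4 0.56 ± 0.05 and Tnnt2 0.47 ± 0.05, while Tnni3 (-0.05 ± 0.10) and Myl7 (-0.05 ± 0.12) had slopes within their errors of 0. The cardiac release channel gene Ryr2 had a negative slope (-0.76 ± 0.25), with a median of 1.4 TPM in eyecups against 19.3 TPM in retinas. The fetal receptor subunit Chrng was at 0.732 TPM or less with 4 libraries at 0.

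Myogenic regulators were present at low levels: Myod1 had a median of 4.61 TPM and Myog 6.30 TPM in eyecups, against 0 TPM for each in retinas. The adult receptor subunit Chrne had 4.69 TPM (0.067 to 17.7). The satellite cell marker Pax7 had 0.36 TPM.

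Between genotypes, none of the 35 genes was called at any age. The edgeR quasi-likelihood test over 18003 genes called 3.07% of genes at 3 months, 0.00555% at 9 months, 0.0611% at 17 months and 4.48% for the mean of the 3 ages, with 0 of 35 members in each. No member had an unadjusted p under 0.05 in these 4 comparisons. DESeq2 also called 0 members (calls equal to 5.34%, 0%, 0.261% and 6.81% of the 18003 genes in the same order), as did limma voom with quality weights (13.2%, 0%, 2.67% and 8.87%). DESeq2 was run on all genes with a count, so its percents are not shares of the genes it tested. For the mean of the ages the median log2 fold change of the members was 0.11 (Efemp1ki/ki minus Wt; 33 of 35 above 0), against 0.02 for all genes. The largest difference was that of Myh4, 0.23 ± 0.30 (SE, edgeR adjusted p = 0.77). Acta1 differed by 0.11 ± 0.26 and Myh8 by -0.07 ± 0.27, each smaller than its error. For Acta1 the sign turned negative without the 3 libraries that stand apart, and for Myh8 it turned positive with replicate numbers as a block. Of 11 satellite cell and myogenic factor genes, Pax3, a myogenic factor also active in neural crest, was lower in Efemp1ki/ki at 3 months (-1.51 ± 0.38, edgeR adjusted p = 0.022) and for the mean of the ages (-0.72 ± 0.21, adjusted p = 0.038). Its level was low, with an eyecup median of 0.21 TPM (0.024 to 0.58), and its slope on the other muscle genes was 0.03 ± 0.11. The genotype difference at 17 months minus that at 3 months had a member median of -0.11, and 0 of 35 members and 0% of all genes were called, with no member at an unadjusted p under 0.05.

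With age, all 35 members had a higher fitted level at 17 than at 3 months in both genotypes, but none passed the edgeR test. In Wt eyecups the median log2 fold change was 0.91, against 0.03 for all genes, and 12 of 35 members (34.3%) had an unadjusted p under 0.05, against 24.6% of all genes. The count of called members was 0 of 35, and the background 5.88% of genes. In Efemp1ki/ki eyecups the median was 0.81, against 0.06 for all genes, 8 of 35 (22.9%) had an unadjusted p under 0.05, against 19.1%, and 0 of 35 were called, against a background of 3.57%. The 35 genes share their libraries and varied together in them, so their common sign is not 35 independent observations. The comparisons of 17 with 3, 17 with 9 and 9 with 3 months share libraries.

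Acta1 shows the size of this spread. In Wt eyecups it ran from 826 through a median of 1601 to 2229 TPM at 3 months, from 617 through 1705 to 2693 TPM at 9 months and from 718 through 2393 to 5422 TPM at 17 months. In Efemp1ki/ki eyecups it ran from 975 through 1376 to 3289 TPM, from 572 through 1669 to 3520 TPM and from 698 through 2157 to 5052 TPM. The oldest groups reached highest but overlapped fully with the youngest at the low end. The fitted change from 3 to 17 months was 1.13 ± 0.49 in log2 (adjusted p = 0.14, edgeR) in Wt and 0.84 ± 0.46 (adjusted p = 0.31) in Efemp1ki/ki.

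By role, the Wt medians of the log2 change from 3 to 17 months were 0.81 for the thin filament, 1.00 for the myosin heavy chains, 0.70 for the light chains, 0.97 for the Z-disc and scaffold, 0.91 for calcium handling and 0.98 for energy supply. In Efemp1ki/ki they were 0.66, 0.94, 0.72, 0.81, 1.04 and 0.86 in the same order. The smallest adjusted p among members in Wt was that of Myh1, 0.11 for a change of 1.52 ± 0.60. Neb (1.22 ± 0.48), Ttn (1.19 ± 0.48) and Pygm (1.11 ± 0.46) followed. In Efemp1ki/ki the smallest was 0.14, of Neb (1.17 ± 0.45), before Casq2 (1.15 ± 0.45). Myh13 had the largest fitted change, 1.75 ± 1.08 in Wt and 1.53 ± 0.99 in Efemp1ki/ki, and Myh3 the smallest, 0.03 ± 0.27 and 0.17 ± 0.26. The slow-fibre genes had a median of 0.66 in Wt and 0.71 in Efemp1ki/ki, and the fast-fibre genes 0.87 and 0.72.

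**Figure D5:**
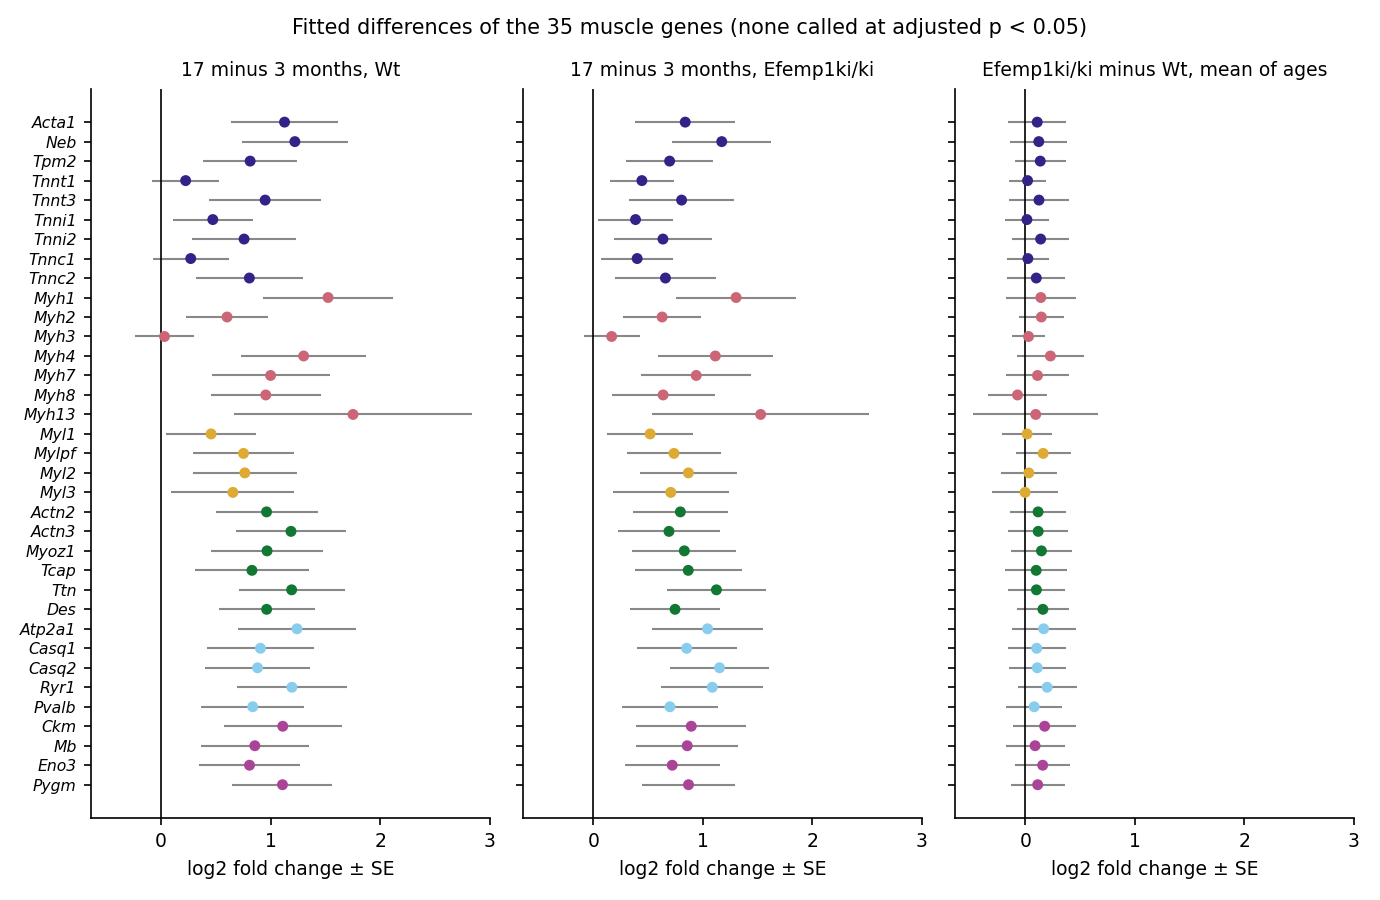
Fitted log2 fold change with its SE (bars) of each of the 35 genes, coloured by role as in the plot of levels, for 17 minus 3 months in Wt and in Efemp1ki/ki eyecups and for Efemp1ki/ki minus Wt as the mean of 3 ages. The age changes lie above 0 for all 35 genes, with medians of 0.91 and 0.81, and the genotype differences lie close to 0, with a median of 0.11.

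The count of called members depended on the tool and, in Efemp1ki/ki, on 1 library. DESeq2 called Myh1 in the Wt comparison of 17 with 3 months (log2 change 1.54 ± 0.54, adjusted p = 0.047), with calls equal to 9.45% of the 18003 genes of the edgeR fit. Without Efemp1ki/ki 3 months replicate 8, the eyecup with the most muscle signal of its group, edgeR called Neb (1.45 ± 0.46, adjusted p = 0.049) and Casq2 (1.45 ± 0.46, adjusted p = 0.048) in Efemp1ki/ki, with 6.36% of all genes called. Limma voom with quality weights, which gives less weight to libraries far from their group, called 10 members higher at 17 than at 3 months in Efemp1ki/ki (12.8% of all genes) and 31 higher at 17 than at 9 months (30.1% of all genes).

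From 3 to 9 months the members had medians of 0.15 in Wt and 0.13 in Efemp1ki/ki, and edgeR called none (background 0.189% and 14.6%) or had an unadjusted p under 0.05. From 9 to 17 months the medians were 0.74 in Wt and 0.68 in Efemp1ki/ki, and edgeR called none (background 0.05% and 0.622%), where limma voom with quality weights called 31 in Efemp1ki/ki. At an unadjusted p under 0.05 stood 12 members (34.3%) in Wt, against 11.6% of all genes, and 5 (14.3%) in Efemp1ki/ki, against 13.9%. Of the other genes of muscle, 1 of 45 sarcomere and triad genes passed the test from 3 to 17 months in Wt, the M-band gene Myom2 (1.25 ± 0.33, adjusted p = 0.022), and none in Efemp1ki/ki. The list had medians of 1.04 and 0.92. Mef2c, a myogenic transcription factor also active in other cells, rose in Wt (0.97 ± 0.27, adjusted p = 0.029) and in Efemp1ki/ki (0.97 ± 0.25, adjusted p = 0.022), the only gene of 11 on the satellite cell and myogenic factor list called in this comparison. Of 10 atrophy and denervation genes, none was called in Wt, and the ubiquitin ligase gene Fbxo30 was higher in Efemp1ki/ki (0.48 ± 0.14, adjusted p = 0.046). Fbxo30 had a median of 10.7 TPM in eyecups against 31.0 TPM in retinas, and its slope on the other muscle genes was -0.0015 ± 0.055. None of 9 neuromuscular junction genes was called in either genotype. Adipose markers had medians of 2.01 and 1.29 with none of 7 called. In Wt, 3 of 7 ocular surface genes (Krt13 by -0.71 ± 0.20, Krt12 by -0.69 ± 0.21 and Perp by -0.61 ± 0.19) and 5 of 5 tested lens genes were lower at 17 months. In Efemp1ki/ki, 0 of 7 and 0 of 5 were called (medians -0.32 and -1.86). The lens signal of the Wt eyecups of 3 months lay mainly in single libraries. As list means of log2 CPM, replicate 9 had 5.66 and replicate 2 had 1.83, while the group median was -1.56, against -1.93 at 17 months. The lens gene Crybb2 had a count of 0 in 16 of 45 eyecups. Kera, a gene of corneal keratocytes on the tendon list, was lower in both genotypes (-1.64 ± 0.29 and -1.45 ± 0.28). The part of these cells in the muscle values was not tested.

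To take out the amount of muscle signal, the fit was repeated with the mean log2 CPM of the 45 other muscle genes as a covariate. The age differences of the members then had medians of -0.21 in Wt and -0.19 in Efemp1ki/ki for 17 minus 3 months, with Acta1 at -0.03 ± 0.08 and -0.19 ± 0.08. The other muscle genes had themselves a larger median rise than the members in both genotypes. In Wt the covariate ran from 4.38 to 5.82 at 3 months and from 4.17 to 7.16 at 17 months. In Efemp1ki/ki it ran from 4.60 to 6.33 and from 4.13 to 7.28. The adjustment, a common slope for all 6 groups, thus reaches in part beyond the 3-month values. In Wt, 5 of 35 members were lower relative to the other muscle genes and none higher, with 2.64% of all genes called lower: Myl1 (-0.46 ± 0.10, adjusted p = 0.0026), Tnnt1 (-0.40 ± 0.11), Tnni2 (-0.35 ± 0.10), Tnnc2 (-0.36 ± 0.10) and Eno3 (-0.25 ± 0.08). Myl1, a light chain of fast fibres, was called in each of the 45 fits that left out 1 library, with replicate numbers as a block, with an offset for GC content and without the libraries that stand apart. Tnni2 was called in 41 of the 45 and under the same 3 settings. The other 3 lost the call under the replicate block, and the count ran from 1 (without Wt 3 months replicate 6 or 9 or Wt 17 months replicate 2) to 10 (without Wt 17 months replicate 6).

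In Efemp1ki/ki, Tnni2 (-0.33 ± 0.09, adjusted p = 0.032) and Tnnc2 (-0.35 ± 0.10, adjusted p = 0.035) were lower at 17 than at 3 months with the covariate, with 1.06% of all genes called lower. Neither was called with the GC offset or without the libraries that stand apart, and the count ran from 0 to 6 with 1 library left out. From 9 to 17 months in Wt, Myl1, Tnnt1, Mylpf and Tnnc1 were lower (-0.45 ± 0.09, -0.49 ± 0.10, -0.45 ± 0.10 and -0.62 ± 0.13), with 0.0778% of all genes called lower, and none was called with the replicate block or, for the count as a whole, without Wt 9 months replicate 7. From 3 to 9 months in Efemp1ki/ki, Ttn was higher and Tnni1, Acta1, Myh2, Tnnt1, Casq1 and Myh3 lower, in a comparison where 10.6% of all genes were called higher and 11.1% lower. Of these 7, Tnni1 (-0.44 ± 0.13, adjusted p = 0.014) was called in all 45 fits that left out 1 library and under all 3 settings, and with the GC offset it was the only one. No member was called between genotypes with the covariate at any age (background 5.54%, 0.00555% and 0.0611% at 3, 9 and 17 months, and 6.92% for their mean), with 1, 6, 3 and 1 of 35 members at an unadjusted p under 0.05 (2.86%, 17.1%, 8.57% and 2.86%), against 21.2%, 2.15%, 12.5% and 23.2% of all genes. Whether the age differences with the covariate differ between genotypes was tested as the change from 3 to 17 months, where 0 of 35 members and 0% of all genes were called, with 1 member (2.86%) and 4.05% of all genes at an unadjusted p under 0.05.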

How the data were processed

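The authors deposited estimated counts per gene, and values named TPM, for 93 libraries in 12 groups. Libraries were stranded and of mRNA, made from column-purified, DNase-treated RNA, per the labels' protocols. The build was GRCm38.p4 per the submitters' processing notes, while aligner, counter and annotation were not given in the sources used here, per the labels. The deposited TPM values reach their nominal library sum over protein-coding genes alone, so they were treated as a score scaled by length. Left out was 1 column per file whose name fits no sample. Estimated counts were rounded and fitted with edgeR 4.0.16 (TMM, filterByExpr, robust quasi-likelihood test) under R 4.3.3, over 45 eyecup libraries in 6 groups (18003 genes) or over all 93 (19210 genes). Benjamini-Hochberg adjustment ran over all genes, and a gene was called at an adjusted p under 0.05. Replicate variation in libraries of 1 group is the error, and library totals are given with the results. Log2 CPM used a prior count of 2. Alternatives were DESeq2 1.42.0, limma 3.58.1 (voom with quality weights, and log2(TPM + 1) and log2(TPM + 0.1)), other filters and scaling, a GC offset (spline with 5 degrees of freedom), replicate numbers as a block, the muscle covariate and each library left out. The scripts were tested on simulated data. All 35 members are named, and of other lists the defining markers and the called genes with the smallest p. The members and lists were chosen with earlier results of these data known. No 2 libraries of a group agreed within sampling noise (smallest chi-square per degree of freedom 2.30).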

Additional observations from a re-analysis of the deposited data

Results flagged for a closer look

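Among 108 tests for a single library far from its group (summed level, 10 genes and 7 myosin shares in 6 groups), 3 stood out, where chance alone gives about 1 in 20. The share of Myh4 was lowest, at 25.2%, in Wt 3 months replicate 3. The level of Acta1 was highest, at 3289 TPM, in Efemp1ki/ki 3 months replicate 8. The share of Myh2 was highest, at 17.7%, in Wt 9 months replicate 4.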

How the results depend on the processing

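Of 183 alternative values for counts of called members, 168 were equal to the main count or near it in ratio, where a main count of 0 had to stay 0. For single genes, 170 of 189 values kept both their sign and whether the gene was called. Without the covariate, the count of 0 became 1 with DESeq2 (17 minus 3 months, Wt), 10 (17 minus 3) and 31 (17 minus 9) in Efemp1ki/ki with voom quality weights, and 0 to 2 with 1 library left out (17 minus 3, Efemp1ki/ki; 2 without Efemp1ki/ki 3 months replicate 8). With the muscle covariate it became 4 (17 minus 9, Wt), 5 (17 minus 3, Wt), 7 (9 minus 3, Efemp1ki/ki) and 2 (17 minus 3, Efemp1ki/ki). With 1 library left out these ran from 0 to 7, 1 to 10, 2 to 8 and 0 to 6. Alternatives to the covariate fit, chosen after seeing the data, gave 0 (17 minus 9, Wt) and 2 (17 minus 3, Wt) with the replicate block. With the GC offset they gave 9 (17 minus 3, Wt), 1 (9 minus 3, Efemp1ki/ki) and 0 (17 minus 3, Efemp1ki/ki). Without the libraries that stand apart they gave 2, 2 and 1 for the same comparisons. The cause was not tested.

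Signs turned for Acta1 between genotypes (-0.00365 with log2(TPM + 1), -0.00366 with log2(TPM + 0.1), -0.00138 without libraries that stand apart) and for Myh8 (0.0573 with the replicate block, 0.0123 with voom). For 17 minus 3 months in Wt, Myh3 gave -0.0508 with log2(TPM + 1), -0.0510 with log2(TPM + 0.1), -0.0440 with the GC offset, -0.0406 with the GC offset and replicate block, and -0.0828 to 0.182 with 1 library left out. The genotype difference of Myh8 ran from -0.179 to 0.0235 with 1 library left out. The covariate gave -0.0338 for Acta1, -0.17 for Myh13, -0.39 for Myh3 and -0.40 for Tnnt1 in Wt, and -0.19 for Acta1 and -0.28 for Myh3 in Efemp1ki/ki.

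Counts over all genes ranged more widely. Between genotypes they ran from 3 to 2374 (553 in the main analysis) at 3 months, 0 to 1 at 9 months, 0 to 481 (11) at 17 months and 35 to 1596 (807) for their mean. In Wt they ran from 10 to 196 (34) for 9 minus 3 months, 0 to 236 (9) for 17 minus 9 and 398 to 2630 (1059) for 17 minus 3. In Efemp1ki/ki they ran from 256 to 5904 (2624), 54 to 5427 (112) and 304 to 2299 (643) in the same order. The replicate numbers in the titles did not pair the samples: in the genotype comparison at 9 months the deviations of same-numbered libraries correlated between -0.42 and 0.71, so the block is only an alternative.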
